A study of Homo sapiens with 4 samples.

Results

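Matrix proteases are the enzymes with which a cell cuts collagen, laminin and other proteins around it, and here 37 genes of this system were examined, out of 25121 genes with a symbol on the array. They were taken by name: 17 matrix metalloproteinases (MMPs), the TIMP inhibitors and RECK, 8 genes of the ADAM and ADAMTS families, the plasminogen activators with their receptor and an inhibitor, and matriptase with its inhibitors. The rule is a list of gene names and holds no threshold on a measured value, though earlier results of these data were known when the list was made. The samples were PC3 and DU145, established human prostate cancer lines that grow without androgen. In each line 1 array held cells with a short hairpin RNA against luciferase as the control (PC3-shC and DU145-shC), and 1 array held cells with a hairpin against ESS2, a nuclear protein linked to RNA splicing and transcription (PC3-shESS2 and DU145-shESS2). All 4 samples were therefore hairpin-bearing cells. The labels speak of lentiviral delivery, the study's methods of plasmid transfection and drug selection of PC3, and neither says whether cultures were pooled or clonal.

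MMPs are made as inactive proenzymes that hold a zinc ion in the active site. Collagenases open fibrillar collagen, gelatinases cut the unwound chains and basement membrane collagen, and membrane-type MMPs work at the cell surface. TIMPs bind the active site of MMPs. Urokinase (PLAU) bound to its receptor PLAUR turns plasminogen into plasmin, a broad serine protease, and matriptase (ST14) is a serine protease of epithelial cell surfaces held in check by SPINT1 and SPINT2. In prostate cancer cells these enzymes are studied for their part in migration and invasion.

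Most of the system was measurable. Of the 37 genes, 31 lay well above background in PC3-shC, 32 in PC3-shESS2, 28 in DU145-shC and 29 in DU145-shESS2, and 27 did so on all 4 arrays. MMP3 (stromelysin-1), MMP12 (macrophage elastase), MMP2 (gelatinase A) and TIMP3 were well above background on none. Values below are background-subtracted signals, which can be compared between arrays only after scaling. Ratios are log2 differences after each array was scaled to its own 75th percentile. Where 1 side was not well above background, that side was raised to the dimmest signal called well above it, and the ratio is a bound written as "at least". A gene was counted as higher or lower past 2-fold when its log2 ratio lay beyond 1 in size. Signals of different genes come from different probes and are not compared.

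**Figure D1:**
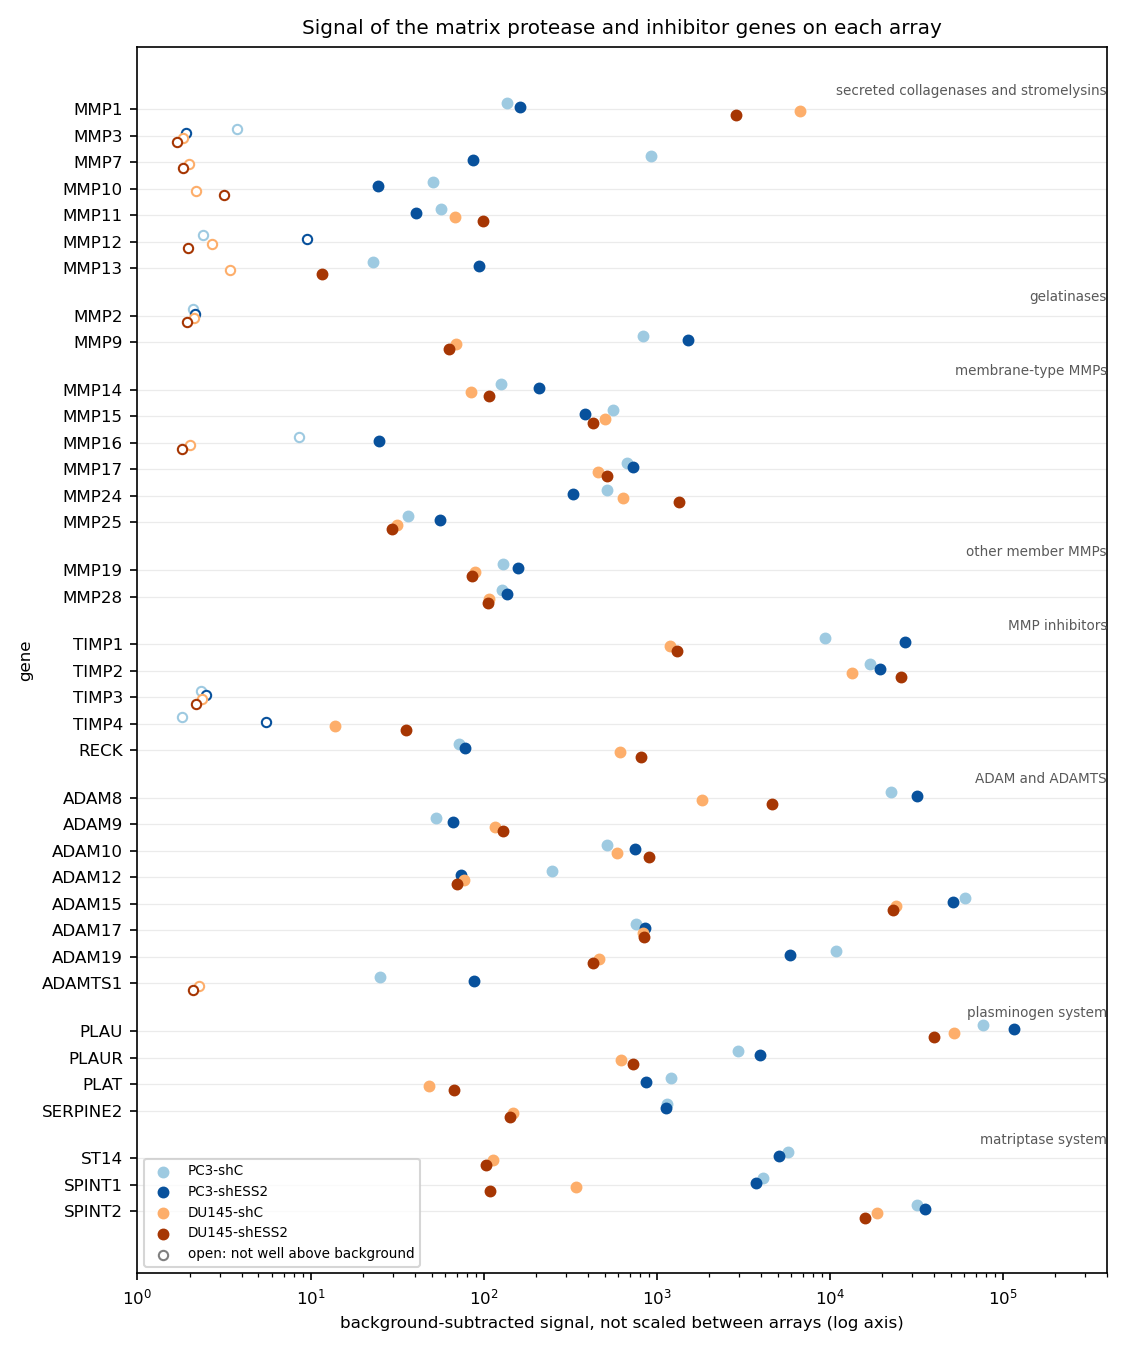
Background-subtracted signal (log axis, not scaled between arrays) of each of the 37 genes on the 4 arrays, 1 point per array, with open circles for spots not well above background. MMP1 sits highest on the DU145 arrays and MMP7, MMP9, ADAM19, PLAT and ST14 on the PC3 arrays, while MMP2, MMP3, MMP12 and TIMP3 are open on all 4.

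The targeted gene was lower on both knockdown arrays. ESS2 signal was 133 in PC3-shC and 53.6 in PC3-shESS2, 2.74-fold lower, and 85.7 in DU145-shC and 17.3 in DU145-shESS2, 5.09-fold lower. All 5 epithelial markers were well above background on every array, and between 50.8% and 52.6% of probes were, with no saturated spot among them. With 1 array per condition no difference within a line could be tested, and no value has an error between cultures. Probes spotted 10 times gave a median SD of 0.084 in PC3 and 0.082 in DU145 for the log2 ratio of knockdown over control, which covers the array and not the culture, and 0.20 and 0.25 for probes with a signal under 100. Some markers of other cell types differed in PC3. The endothelial marker PECAM1 went from 338 to 16.4 and the leukocyte marker CD14 from 221 to 54.7, while the fibroblast marker LUM went from 9.90 to 48.8. Over the whole lists, the summed signal on the arrays in the order PC3-shC, PC3-shESS2, DU145-shC and DU145-shESS2 was 428, 110, 64.4 and 74.6 for 5 endothelial genes (89.6, 93.4, 62.3 and 65.4 without PECAM1), 344, 144, 224 and 341 for 6 leukocyte genes and 310, 285, 108 and 102 for 8 fibroblast genes. Of these genes 4, 3, 2 and 2 endothelial, 3, 3, 2 and 4 leukocyte and 3, 4, 2 and 2 fibroblast ones were well above background. Their part in the results was not tested. In such bulk RNA, fewer cells of a kind and less RNA per cell cannot be told apart.

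In PC3, the knockdown array showed much less matrilysin and more TIMP-1 than its control. Of 32 genes that could be compared, 17 were higher and 15 lower. Past 2-fold, 4 were higher (MMP13, MMP16, TIMP1 and ADAMTS1), 12.5% against 3.88% of all genes compared, and 4 were lower (MMP7, MMP10, ADAM12 and ADAM19), 12.5% against 3.87%. The median log2 ratio was 0.018 over the 32 genes and −0.055 over all genes. These shares describe 2 arrays and carry no test. With another background correction (normexp) 3 of the 8 were past 2-fold, MMP7, ADAM12 and TIMP1.

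The largest difference belonged to MMP7. MMP7, matrilysin, is a small MMP without the hemopexin domain that epithelial cells secrete. Its signal was 924 in PC3-shC and 86.6 in PC3-shESS2, a log2 ratio of −3.56 or 11.8-fold lower. On both DU145 arrays it was not well above background, so nothing could be compared there. MMP10 (stromelysin-2), which activates other MMPs, was also lower in PC3, with 51.0 in PC3-shC, 24.6 in PC3-shESS2 and a log2 ratio of −1.19. It was well above background on no DU145 array. MMP13 (collagenase-3) lay the other way, at 23.1 in PC3-shC and 93.9 in PC3-shESS2, a log2 ratio of 1.88. It was not well above background in DU145-shC and gave 11.7 in DU145-shESS2, at least 1.32-fold higher. That bound does not settle on which side of 2-fold it lay: with the plain signal of the dim spot its log2 ratio in DU145 was 1.73.

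These 3 genes lie in a run of 9 MMP genes on chromosome 11, in the order MMP7, MMP20, MMP27, MMP8, MMP10, MMP1, MMP3, MMP12 and MMP13. Neighbours did not move alike in PC3: MMP1 (interstitial collagenase), beside MMP10, gave 136 and 163 with a log2 ratio of 0.12, and MMP3 and MMP12 were not well above background. The start regions of MMP7 and MMP10 are shown because these genes were the pair of secreted MMPs that were lower in PC3 and seen only there. The windows run from 250 bases before the annotated start to 50 bases after it, in RefSeq on GRCh38.p14, at chr11:102530698-102530997 for MMP7 and chr11:102780579-102780878 for MMP10, both on the minus strand. Capitals mark the letters TGANTCA, which AP-1 (dimers of FOS and JUN proteins) prefers. Capitals also mark TATAAA, the core letters at which the general transcription machinery is often placed.
MMP7: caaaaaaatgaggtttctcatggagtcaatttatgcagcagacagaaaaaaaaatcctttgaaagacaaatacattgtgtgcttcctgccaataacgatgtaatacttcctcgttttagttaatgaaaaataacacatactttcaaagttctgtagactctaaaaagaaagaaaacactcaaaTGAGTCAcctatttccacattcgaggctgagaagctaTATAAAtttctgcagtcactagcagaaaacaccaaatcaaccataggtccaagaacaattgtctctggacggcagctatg
MMP10: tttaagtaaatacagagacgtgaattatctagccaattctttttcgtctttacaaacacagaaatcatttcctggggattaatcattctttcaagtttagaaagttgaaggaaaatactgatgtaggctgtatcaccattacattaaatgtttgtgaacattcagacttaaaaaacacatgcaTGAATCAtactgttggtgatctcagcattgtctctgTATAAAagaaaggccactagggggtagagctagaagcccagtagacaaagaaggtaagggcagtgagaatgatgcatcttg
In both genes the AP-1 letters began 67 bases before the start, as TGAGTCA in MMP7 and as TGAATCA in MMP10, and TATAAA began 30 and 31 bases before it. Of 35116 windows of this length, 7.71% held TGANTCA on either strand and 7.33% held TATAAA on the gene's strand. Only 20 of the 37 genes of the set had a window. The rest were not searched, so whether they hold the same letters is not known here. Of those 20 genes, MMP7, MMP10, PLAUR and SPINT1 held the AP-1 letters and only MMP7 and MMP10 held TATAAA. The NF-κB motif, searched in the same way and held by 5.91% of all windows, was in 0 of the 23 windows of these genes. The matches are letters in a window, and no binding was measured here.

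Among the other MMPs, differences in PC3 stayed under 2-fold apart from MMP16. Gelatinase B (MMP9), which cuts basement membrane collagen, gave 832 in PC3-shC and 1510 in PC3-shESS2, a log2 ratio of 0.72, and 69.4 and 63.1 on the DU145 arrays, −0.18. MMP14, the membrane-type MMP that activates proMMP2, gave 126 and 209 in PC3 (0.59) and 84.3 and 107 in DU145 (0.30). MMP16, another membrane-type enzyme, was not well above background in PC3-shC and gave 25.0 in PC3-shESS2, at least 2.54-fold higher. MMP15, MMP17, MMP25, MMP19, MMP28 and MMP11 lay between −0.68 and 0.48 in PC3 and between −0.29 and 0.50 in DU145.

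TIMP1, which inhibits most secreted MMPs, was the inhibitor that differed in PC3. It gave 9430 in PC3-shC and 27200 in PC3-shESS2, a log2 ratio of 1.39 or 2.62-fold higher, and 1200 and 1310 in DU145, 0.09. TIMP2, which also takes part in proMMP2 activation, showed the reverse: 17000 and 19400 in PC3 (0.05), and 13400 and 25800 in DU145 (0.90), just under 2-fold. TIMP4 was not well above background on the PC3 arrays and gave 13.8 in DU145-shC and 35.7 in DU145-shESS2, a log2 ratio of 1.33. RECK, a membrane-anchored MMP inhibitor, had log2 ratios of −0.03 in PC3 and 0.37 in DU145. RECK in DU145 turned to −0.13 when its 2 probes were averaged.

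Of the ADAM family, membrane-bound relatives of the MMPs that shed surface proteins, ADAM12 and ADAM19 were lower in PC3. ADAM12 gave 247 in PC3-shC and 73.6 in PC3-shESS2, a log2 ratio of −1.89 or 3.70-fold lower, and 77.0 and 70.5 in DU145, −0.17. ADAM19 gave 10900 and 5920 in PC3, −1.02 or 2.03-fold lower, just past the limit, and 465 and 431 in DU145, −0.15. A second ADAM19 probe gave 79.0 and 47.8 in PC3, −0.87 and so under 2-fold. ADAMTS1, a secreted enzyme that cuts proteoglycans, gave 25.3 and 87.8 in PC3, 3.15-fold higher, and no DU145 array was well above background. The main sheddases lay under 2-fold in both lines. ADAM17, which releases tumour necrosis factor, gave 764 and 858 in PC3 and 833 and 849 in DU145, with log2 ratios of 0.03 and −0.01. ADAM10 had 0.41 and 0.57, ADAM9 0.18 and 0.11, and ADAM15 −0.36 and −0.11.

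ADAM12 was read by 4 probes on different transcripts. The pair on the transcript for the long, membrane-anchored form gave log2 ratios of −1.89 and −1.72 in PC3, the latter from 105 in PC3-shC and 35.1 in PC3-shESS2. The pair on the transcript for the short, secreted form gave −0.04, from 21.9 and 23.5, and −0.20, from 9.69 and 9.30, both near background. In DU145 the long-form probes gave −0.17 and 0.43 and the brighter short-form probe gave 0.42. Levels cannot be compared between these probes, and the short-form signals lie near the background, where spot spread is widest. A difference between the transcripts was not tested.

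In DU145, the knockdown array showed less collagenase-1 and less SPINT1, and more ADAM8. Of 29 genes compared, 14 were higher and 15 lower. Past 2-fold, 3 were higher (MMP24, TIMP4 and ADAM8), 10.3% against 2.36% of all genes compared, and 2 were lower (MMP1 and SPINT1), 6.90% against 2.47%. The median log2 ratio was −0.013 over the 29 genes and −0.021 over all genes. With normexp 3 of the 5 were past 2-fold, MMP1, SPINT1 and ADAM8.

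MMP1, which opens fibrillar collagen, gave 6699 in DU145-shC and 2884 in DU145-shESS2, a log2 ratio of −1.26 or 2.39-fold lower. It was spotted 10 times on each array. The SD of the log2 ratio over all those spots, including any outlier spots that the ratio leaves out, was 0.086 in DU145 and 0.115 in PC3. SPINT1, the inhibitor of matriptase and of the activator of hepatocyte growth factor, gave 344 in DU145-shC and 109 in DU145-shESS2, 3.25-fold lower (log2 ratio −1.70), and 4130 and 3750 in PC3, −0.28. Its target matriptase gave log2 ratios near 0, with 113 and 103 in DU145, −0.17, and 5740 and 5060 in PC3, −0.32. SPINT2 gave 18800 and 15900 in DU145, −0.28, and 32000 and 35500 in PC3, 0.01. Another epithelial surface gene, EPCAM, was also lower in DU145, from 2120 to 357, while E-cadherin (CDH1) stood at 176 and 180 and the keratins KRT8, KRT18 and KRT19 had log2 ratios of 0.28, −0.03 and 0.25. Their part in the SPINT1 value was not tested.

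ADAM8, a sheddase of leukocytes and tumour cells, gave 1820 in DU145-shC and 4650 in DU145-shESS2, a log2 ratio of 1.31, and 22600 and 32000 in PC3, 0.36. These come from its brightest probe. Its further probes gave 1.19 and −0.23 in DU145, and the mean of its probes 0.76, under 2-fold. MMP24, a membrane-type MMP best known from neurons, gave 643 and 1350 in DU145, 1.03, and 513 and 328 in PC3, −0.79. It was the gene with the widest gap between the lines among those that could be compared in both and pointed opposite ways.

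The plasminogen system lay under 2-fold in both lines. PLAU gave 76500 in PC3-shC and 116000 in PC3-shESS2, a log2 ratio of 0.46, and 52000 and 40200 in DU145, −0.41. A second PLAU probe gave 0.76 and −0.42, so that both probes were higher in PC3 and lower in DU145. PLAUR had 0.29 and 0.18, and SERPINE2 (protease nexin-1), which inhibits urokinase and thrombin, −0.15 and −0.09. PLAT, tissue plasminogen activator, gave −0.61 in PC3, from 1203 and 872, and 0.43 in DU145, from the dim signals 48.4 and 67.0. Over all 10 PLAT spots of each array the SD of the log2 ratio was 0.081 in PC3 and 0.189 in DU145. These SDs include any outlier spots, which the ratios leave out.

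The responses of both lines were then set side by side. Of 28 genes compared in both, 16 had the same direction and 12 the opposite, where 57.0% of all genes had the same. Of the 28, 8 were past 2-fold in 1 line, and none was measured past it in both, where MMP13 in DU145 is a bound. Of all 15478 genes compared in both lines, 0.775% were past 2-fold in both, so a count of 0 among 28 is no result about the members. The other 5 of the 13 past 2-fold in either line (MMP7, MMP10, MMP16, ADAMTS1 and TIMP4) could be compared in that line only. The knockdown was also fitted across the 4 arrays with the line as a term in limma, which leaves 1 residual degree of freedom. At an adjusted p (Benjamini-Hochberg) under 0.05 it called 0 of 17126 genes, a background of 0.0%, and 0 of the 32 members tested, whose smallest adjusted p was 0.754. Unadjusted, 1028 genes and 2 of the members had a p under 0.05, namely MMP13 with a mean log2 difference of 1.81 and TIMP4 with 1.40, and both rest in part on arrays where they were not well above background.

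More of the set differed between the lines than within either. Between the controls, 32 genes could be compared and 15 were higher past 2-fold in PC3-shC, 46.9% against 22.1% of all genes, while 3 were higher in DU145-shC (MMP1, RECK and ADAM9), 9.38% against 19.9%. On the authors' own scaling the split was 11 and 6, where 13.7% of all genes were higher and 29.5% lower past 2-fold. The median log2 ratio of PC3-shC over DU145-shC was 0.36 over these genes and 0.12 over all, and −0.086 and −0.31 with the authors' table, so that its direction depends on the scaling. Each line was on a slide and scan of its own, read by a different software version, so that line and slide cannot be told apart. The knockdown arrays are separate samples: of the 18 genes past 2-fold between controls, 17 had the same direction between PC3-shESS2 and DU145-shESS2 and 16 were past 2-fold the same way. Of all 7343 genes past 2-fold between controls, 95.8% and 78.6% did so. ADAM12 (1.37 between controls, −0.35 between knockdowns) and ADAM15 (1.01 and 0.75) were not. The knockdown and line comparisons share the control arrays.

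MMP1 had the highest ratio toward DU145, at 136 in PC3-shC and 6699 in DU145-shC, 61.1-fold, and a log2 ratio of −5.93 between controls and −4.56 between knockdowns. Of the 5 compared among the secreted collagenases, stromelysins and matrilysin, 3 lay toward PC3. The other 2, MMP1 and MMP11 (−0.58, and −1.03 with the authors' table), lay toward DU145. Those toward PC3 were MMP7 at least 86.1-fold, MMP10 at least 4.75-fold and MMP13 at least 2.15-fold, none of them well above background in DU145-shC. With normexp the log2 ratios of MMP10 and MMP13 were 0.54 and 0.11, and with the authors' table MMP13 was also not past 2-fold. MMP9 was 9.66-fold higher in PC3-shC. The membrane-type MMPs that were compared lay between −0.64 and 0.27, none past 2-fold. With the authors' table MMP24 passed at −1.09 and MMP14 and MMP17 turned to −0.18 and −0.21, and with median scaling MMP15 and MMP25 turned to 0.28 and 0.36.

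Among inhibitors, TIMP1 was 6.33-fold higher in PC3-shC (9430 against 1200), TIMP2 had a log2 ratio of 0.03 that turned negative with quantile normalization and with the authors' table, and RECK was 10.6-fold higher in DU145-shC, with 72.0 against 613. A second RECK probe disagreed in size, with 59.7 and 73.2 and a log2 ratio of −0.61. TIMP4 was not well above background in PC3-shC and was at least 1.91-fold higher in DU145-shC. That bound leaves its side of 2-fold unknown: with the plain signal of the dim spot its log2 ratio was −3.24. ADAM19 was 18.9-fold and ADAM8 10.0-fold higher in PC3-shC. The ADAM8 value came from the brightest of 3 probes. The other two gave 2.59 and −0.09 against its 3.32, and in the DU145 knockdown 1.19 and −0.23 against its 1.31. ADAM9 had −1.44, but was under 2-fold with median scaling and with normexp (−0.74). ADAM10 and ADAM17 had −0.51 and −0.44.

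The plasminogen and matriptase genes in the set, 7 in all, were higher in PC3-shC, except that PLAU and SPINT2 turned to −0.14 and −0.10 with quantile normalization and PLAU to −0.20 with the authors' table. PLAT had a log2 ratio of 4.32, SERPINE2 was 6.25-fold higher, PLAUR 3.80-fold (2950 against 625) and PLAU had a log2 ratio of 0.25. ST14 was 40.9-fold higher and SPINT1 9.68-fold, while SPINT2 had 0.46. After knockdown the gap in SPINT1 was wider, with 4.69 against 3.27. E-cadherin differed in the same direction, 8483 in PC3-shC against 176 in DU145-shC.

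The wider pathway was taken from lists of related genes. The counts below are of short lists, and of all genes compared 3.88% were higher and 3.87% lower past 2-fold in PC3, and 2.36% and 2.47% in DU145. Among 16 plasminogen partners, 9 were compared in each line. In PC3, 2 were higher past 2-fold and 0 lower: SERPINB2 (plasminogen activator inhibitor-2), from 60.9 to 206, and SERPINB5 (maspin), from 3870 to 9970. In DU145, VTN (vitronectin, from 25.3 to 73.6) and SERPINI1 (neuroserpin, from 52.6 to 113) were higher and F12 (factor XII, from 4530 to 2000) lower.

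Of 18 other ADAMTS genes, 7 were compared in PC3. ADAMTS6 was 13.1-fold higher there, from 13.9 to 201, and ADAMTS14, a procollagen peptidase, was lower, from 61.2 to 25.2. In DU145, 8 were compared and 1 was higher, by a bound. Of 14 other ADAM genes, 6 were compared in PC3 with 0 past 2-fold, and 8 in DU145 with ADAM21 higher (from 42.2 to 130) and 1 lower by a bound. Of 6 other MMP genes, 1 was compared in PC3, with 0 past 2-fold, and 0 in DU145.

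Of 27 genes of membrane serine proteases and convertases, with growth factors, receptors and other surface proteins tied to them such as HGF, MET and BSG, 21 were compared in PC3, with 3 higher and 1 lower past 2-fold. PRSS23 (from 497 to 1830) and DPP4 (from 239 to 650) were higher, and TMPRSS2, an androgen-regulated protease, was lower (from 104 to 43.0). In DU145, 18 were compared and PRSS22 alone passed, from 140 to 64.3. Of 21 cathepsins and cystatins on the array, mostly lysosomal proteases and inhibitors of the cysteine proteases among them, 17 were compared in PC3, where CTSV was higher (from 721 to 2150), CTSB (from 1500 to 658) and CTSH (from 2800 to 1460) were lower, and 1 more was lower by a bound. In DU145, 15 were compared and CST6 (cystatin M) alone passed, from 1450 to 595.

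Of 21 transcription factors known to act on matrix protease genes, mostly of the AP-1, ETS and NF-κB families, 2 were higher past 2-fold in PC3 and 3 in DU145, and 0 were lower in either. In DU145 these were FOS (from 1810 to 5260), FOSB (from 72.6 to 197) and JUNB (from 203 to 434), subunits of AP-1, and in PC3 ETS1 (from 33.1 to 79.0) and FOSB, the latter by a bound.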

How the data were processed

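Total RNA from 4 samples was hybridised to 4 one-colour Agilent arrays. The authors deposited scanner files read with Feature Extraction 12.1 (PC3) or 12.0 (DU145), whose intensity values are background-subtracted processed signals, and a table of linear intensity values with an unstated scaling, in which each column was the processed signal times a constant. Here the log2 processed signal minus each array's 75th percentile over non-control spots was used, with outlier spots left out and repeated spots averaged. Probes were named through accessions in a RefSeq table (GRCh38.p14), which matched 35080 of 58201 probes. Where several probes matched a gene, the brightest on average was used. Of the 37 genes, 27 had 1 probe. A dim side was raised to its array's lowest signal among probes well above background, and a gene dim on both sides was not compared. With 1 array per condition, calls mean past 2-fold and were set beside all genes compared. A model with line and knockdown was fitted over all genes with limma 3.58.1 (R 4.3.3), Benjamini-Hochberg adjusted. Alternatives changed the scaling, background correction (normexp, offset 50), filter, floor, probe rule, outlier spots and source table. All members were kept, and genes of the related protease lists were named where they passed 2-fold well above background on both arrays of a line, at most 3 per list and line (at most 4 transcription factors). Cell type markers were named beside the results they accompany. The members and lists were chosen with earlier results of these data known. Scripts used Python 3.11.15. The number of arrays limits the precision.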

Additional observations from a re-analysis of the deposited data

Results flagged for a closer look

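Of the 28 genes compared in both lines, 4 had log2 ratios of opposite sign with a gap of over 1 between them, and so had 1152 of all 15478 genes compared in both (7.44%). The MMP1 ratio in PC3 is a mean over its spots. It was about the size of the SD between single spots, 0.115, which is not the error of that mean. MMP11 and PLAT were past 2-fold in neither line. The difference between the lines was not tested, since 1 array per condition leaves no spread to test it with. MMP1 had a log2 ratio of 0.12 in PC3 and −1.26 in DU145, a difference (PC3 minus DU145) of 1.38, and between 1.24 and 1.44 over 10 settings. MMP24 had −0.79 and 1.03, a difference of −1.82, between −1.95 and −1.66. MMP11 (stromelysin-3) had −0.62 and 0.50, a difference of −1.12, and PLAT had −0.61 and 0.43, a difference of −1.03. For MMP11 and PLAT the gap shrank to −0.60 and −0.74 in the setting that gave the smallest. The MMP11 signals were 56.5, 40.5, 68.0 and 99.1 in PC3-shC, PC3-shESS2, DU145-shC and DU145-shESS2.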

How the results depend on the processing

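No paired analysis was possible because the labels carry no replicate numbers, other than the limma fit itself, whose term for the line pairs knockdown with control (without that term it also called 0 genes). With 1 array per condition no array was left out. With normexp background correction, which compresses dim genes, the genes past 2-fold went from 8 to 3 in PC3 (MMP7 and ADAM12 lower, TIMP1 higher) and from 5 to 3 in DU145 (MMP1 and SPINT1 lower, ADAM8 higher). Over the other settings the count was at most 11 in PC3, with no filter on dim genes, and at most 6 in DU145. Between the controls it ranged from 13 to 19 genes (22 probes when each was counted on its own), and the split of 15 higher and 3 lower in PC3 became 11 and 6 with the authors' table, which moved the median of all genes by −0.43 (0.46 with median scaling). MMP7 (−3.66 to −2.85), TIMP1 (1.28 to 1.48), MMP1 (−1.31 to −1.22) and SPINT1 (−1.80 to −1.38) stayed past 2-fold in all 10 settings. With normexp MMP10 had −0.48, MMP13 0.77 and ADAMTS1 0.62 in PC3, and TIMP4 0.40 in DU145. With the mean of a gene's probes ADAM12 had −0.96 in PC3 and ADAM8 0.76 in DU145. ADAM19 dropped below 2-fold in 4 settings, to −0.89 at the least. The limma fit called 0 genes of the set in every setting, with adjusted p values of 0.649 or more. In that fit 0 to 3 members had an unadjusted p under 0.05, where 0.169% to 7.65% of all genes tested had one. Signals under 100 (MMP10, MMP13, MMP16, TIMP4, ADAMTS1) lie near background, where spot spread is widest.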

Other observations

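The following related genes were picked after their values were seen. PRSS8 (prostasin), a membrane-anchored serine protease that works with matriptase in epithelia, gave 10100 in PC3-shC, 17800 in PC3-shESS2, 46.1 in DU145-shC and 75 in DU145-shESS2, 177-fold higher in PC3-shC than in DU145-shC. SERPINB5 (maspin) was 180.3-fold higher, with 3870 against 17.3. TMPRSS13, another membrane serine protease, was at least 68.3-fold higher, with 733 in PC3-shC and a DU145-shC signal not well above background. CTSK (cathepsin K), a collagen-cutting cysteine protease, lay the other way, at 84.8 in PC3-shC and 1700 in DU145-shC. ANXA2, a plasminogen receptor subunit, gave 43400 and 77100 in PC3 and 31300 and 37900 in DU145, with log2 ratios of 0.69 and 0.24 for knockdown over control.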
